A study of Mus musculus with 12 samples.

Results

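The fibroblast growth factor (FGF) system was followed through 10 of the 18211 genes quantified in MC38 tumors. They are the 6 FGF genes Fgf1, Fgf2, Fgf7, Fgf10, Fgf13 and Fgf21 and the 4 receptor genes Fgfr1, Fgfr2, Fgfr3 and Fgfr4. They were picked by gene symbol, with earlier results of these data known. MC38 is a mouse colorectal adenocarcinoma line, and its cells had been placed under the skin of female C57BL/6 mice obtained at 5 weeks of age. The mice were split on day 7 into 4 groups, from each of which 3 tumors were sequenced as bulk RNA. CK mice carried the same tumors and took the vehicle. PB-020, an inhibitor of the IGF-1 receptor, was dosed by mouth at 50 mg/kg per day. The anti-PD-1 group had 200 μg of antibody against the T cell receptor PD-1 per mouse, injected on days 9, 12, 15 and 18. The PB-020+anti-PD-1 group, called the combination here, was given both. All tumors came from a single cell line, and RNA of the cancer cells and of the host's cells was read together, so fewer cells of one type and less RNA per cell cannot be told apart in any value given here.

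FGFs are signaling proteins that mostly act on neighbouring cells. A secreted FGF joins its receptor tyrosine kinase together with heparan sulfate, a sugar chain on the cell surface and in the matrix, and the docking protein FRS2 then relays the signal to the RAS-ERK and PI3K-AKT pathways. Sprouty proteins and dual-specificity phosphatases are induced by the signal and dampen it. FGF7 and FGF10 are made by mesenchymal cells and act on a splice form of FGFR2 found in epithelia, whereas FGF1 can bind all FGF receptors. FGF21 is a hormone that needs the co-receptor beta-klotho. Fgf13 carries the family name, but its protein stays inside the cell and is known for binding sodium channels and microtubules, so that it is no ligand in the usual sense.

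The expected counts of a library, that is the reads RSEM assigned to genes, summed to between 16545394 and 17217035, and depth therefore differed little between tumors. Most usual markers of a colon epithelium were nearly absent, since only 2 of 11 simple epithelial markers had enough counts to be tested and Krt8, Epcam and Cdx2 had at most 4, 17 and 2 counts in any tumor. The 2 tested were Cdh1, with 114 to 179 counts in the CK tumors, and Lgals4, with 153 to 195. In 4 libraries transcripts of surrounding tissue stood out. The summed FPKM of 15 skeletal muscle genes was 756 in anti-PD-1 tumor 1 against at most 79.7 in the other 11 libraries, and the fat cell list reached 309.9 in CK tumor 3. Of 12 epidermal genes, the 11 other than Krt14 summed to 34.3 FPKM in PB-020 tumor 3 and 56.5 in combination tumor 2 against at most 12.01 in the other libraries, a split made after the values were seen. Krt14 had 1795 to 5006 counts in every tumor and made up most of the list, and with it PB-020 tumor 3 (159.6 FPKM) lay within the range of the other libraries.

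One receptor and a pair of ligands accounted for nearly all of the FGF system's RNA among the 10 genes. FPKM, which scales a count by gene length and library total, allows levels to be set side by side between genes. Fgfr1 lay between 65.6 and 91.7 FPKM in the 12 tumors (median 77.8), a level above that of 94.9% of the genes in the CK tumors. It made up 99.3% to 99.8% of the summed FPKM of the 4 receptor genes, and exceeded the other 3 together by 134-fold to 655-fold. Fgf7 followed with a median of 2.20 FPKM (1.09 to 2.92) and Fgf1 with 0.75 (0.14 to 1.61). The ranges of Fgf7 and Fgf1 over all tumors overlapped, yet Fgf7 stood above Fgf1 within each tumor. The remaining 7 genes had medians of 0.205 FPKM or less, in the order Fgf13 (0.205), Fgfr3 (0.185), Fgf2 (0.11), Fgf21 (0.07), Fgf10 (0.035), Fgfr2 (0.025) and Fgfr4 (0.015), and each of them overlapped its neighbours in this order.

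**Figure D1:**
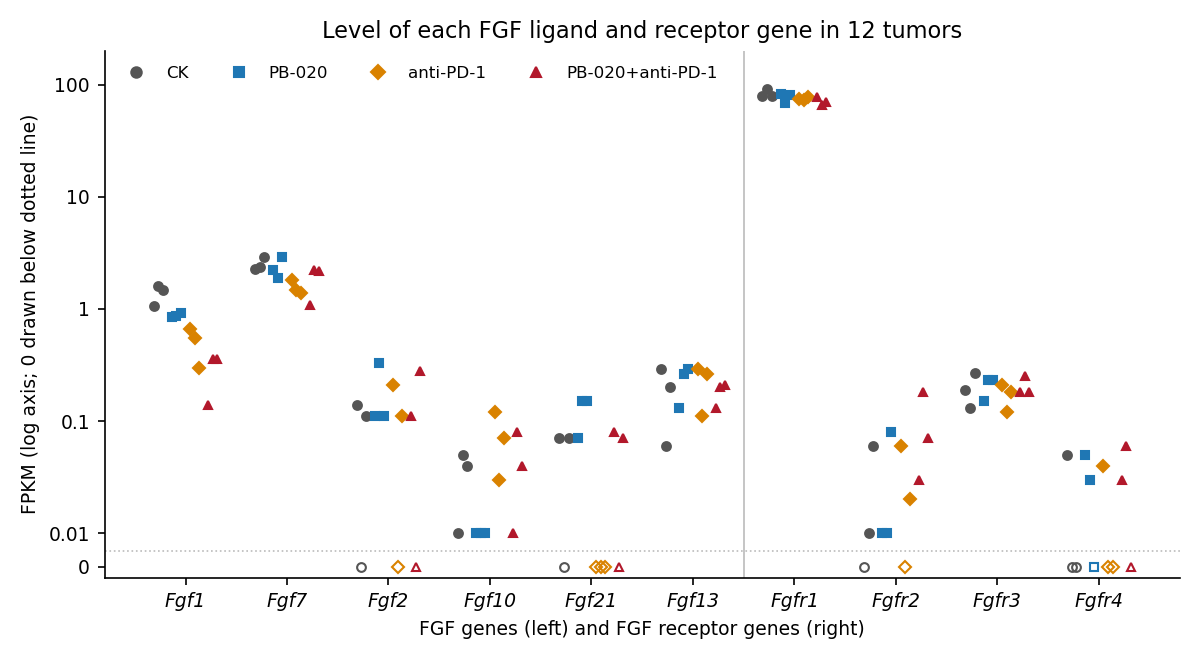
FPKM (log axis) of the 6 FGF genes and 4 receptor genes, with 1 point per tumor and the 4 groups side by side within each gene, and with open symbols below the dotted line for tumors at 0. Fgfr1 sits between 65.6 and 91.7 FPKM, far above the other 9 genes, of which only Fgf1 and Fgf7 exceed 1 FPKM in any tumor.

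Of the 4 members with enough counts to be tested, Fgf1 alone changed in the main test described below, and it fell. It encodes acidic FGF, which binds every FGF receptor, and lies on chromosome 18 of GRCm38 (38838672 to 38929470, gene 14164). In the CK tumors Fgf1 had 69, 104 and 93 counts, or 1.06, 1.61 and 1.46 FPKM. In the PB-020 tumors it had 54, 56 and 56 counts, or 0.84, 0.87 and 0.91 FPKM. The PB-020 tumors were close to each other and all below the CK tumors. In the anti-PD-1 tumors it had 42, 36 and 21 counts, or 0.66, 0.55 and 0.30 FPKM. In the combination tumors it had 9, 23 and 23 counts, or 0.14, 0.36 and 0.36 FPKM. No tumor given the antibody, alone or in the combination, reached the lowest tumor of the CK or the PB-020 group, while the ranges of the anti-PD-1 and combination tumors overlapped at their edge. The share of all genes whose groups separate in this way was not counted. Mean levels were 1.38 ± 0.284 FPKM (SD, n = 3) in CK, 0.873 ± 0.0351 with PB-020, 0.503 ± 0.184 with anti-PD-1 and 0.287 ± 0.127 with the combination.

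Each comparison was tested on the counts with edgeR's quasi-likelihood model over the 13563 genes with enough counts, and a gene counts as changed at a Benjamini-Hochberg adjusted p under 0.05. Against CK, the combination lowered Fgf1 by 4.69-fold (log2 change −2.23, standard error 0.34, adjusted p = 0.0023). Anti-PD-1 alone lowered it by 2.64-fold (log2 change −1.40, standard error 0.32, adjusted p = 0.020). For PB-020 alone the fitted log2 change was −0.65 (standard error 0.31), with a 95% interval from −1.31 to 0.01 and an adjusted p of 0.87. The combination lowered Fgf1 relative to PB-020 alone (log2 change −1.58, standard error 0.34, adjusted p = 0.031). Relative to anti-PD-1 alone the fitted log2 change was −0.83 (95% interval −1.57 to −0.09), and its adjusted p was 0.66. Averaged over tumors with and without PB-020, the antibody lowered Fgf1 by 2.81-fold (log2 change −1.49, standard error 0.23, adjusted p = 0.0012). Averaged over the antibody, PB-020 gave a fitted log2 change of −0.74 (95% interval −1.24 to −0.25, adjusted p = 0.31). The interaction, which asks whether the combination departs from the sum of the single log2 changes, was −0.18 with a 95% interval from −1.15 to 0.80. These comparisons share groups and are not independent of each other, and Fgf1 is among the lowered genes that the study displayed from these libraries.

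The call for anti-PD-1 alone rested on single libraries. Its adjusted p was 0.093 without CK tumor 2 and 0.076 without anti-PD-1 tumor 3, and 0.063 when the libraries of these groups alone were fitted, with log2 changes of −1.27, −1.18 and −1.40. The call against PB-020 was lost without PB-020 tumor 1 or 3 or without combination tumor 1, 2 or 3, where the adjusted p was 0.12, 0.099, 0.13, 0.076 and 0.059. Against CK, the combination kept its call in each of 22 alternative settings, with adjusted p from 9.56e-08 to 0.016.

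Fgf7 encodes keratinocyte growth factor and lies on chromosome 2 (126034658 to 126091185, gene 14178). It had 98, 102 and 123 counts in the CK tumors, 94, 81 and 125 with PB-020, 78, 63 and 59 with anti-PD-1 and 46, 93 and 94 with the combination. All anti-PD-1 and combination tumors lay below the CK tumors, and the PB-020 tumors overlapped them. How many of all genes separate these groups likewise was not counted, so the separation is a description. Mean levels were 2.51 ± 0.35 FPKM (SD, n = 3) in CK, 2.34 ± 0.524 with PB-020, 1.56 ± 0.229 with anti-PD-1 and 1.83 ± 0.644 with the combination. No comparison of Fgf7 passed the threshold. The fitted log2 change was −0.67 (standard error 0.25, adjusted p = 0.11) for anti-PD-1 and −0.43 (standard error 0.25, adjusted p = 0.24) for the combination against CK, and −0.08 for PB-020. Averaged over PB-020, the value for the antibody was −0.51 (95% interval −0.90 to −0.13) with an adjusted p of 0.053, which fell to between 0.039 and 0.050 in 7 of 21 alternative settings, among them the fits without PB-020 tumor 2, anti-PD-1 tumor 1 or combination tumor 2.

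The ratio of Fgf7 to Fgf1 FPKM describes how the balance of these ligand transcripts differed between tumors. It was 2.12, 1.48 and 1.99 in the CK tumors, 2.62, 2.18 and 3.21 with PB-020, 2.76, 2.67 and 4.63 with anti-PD-1 and 7.79, 6.17 and 6.08 with the combination. The combination tumors stood above all others and the CK tumors below all others, whereas the single treatments overlapped. CK and PB-020 came closest, at 2.12 and 2.18. Since Fgf1 is its denominator, the ratio restates the levels given above and is no separate result. No test was run on this ratio.

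**Figure D2:**
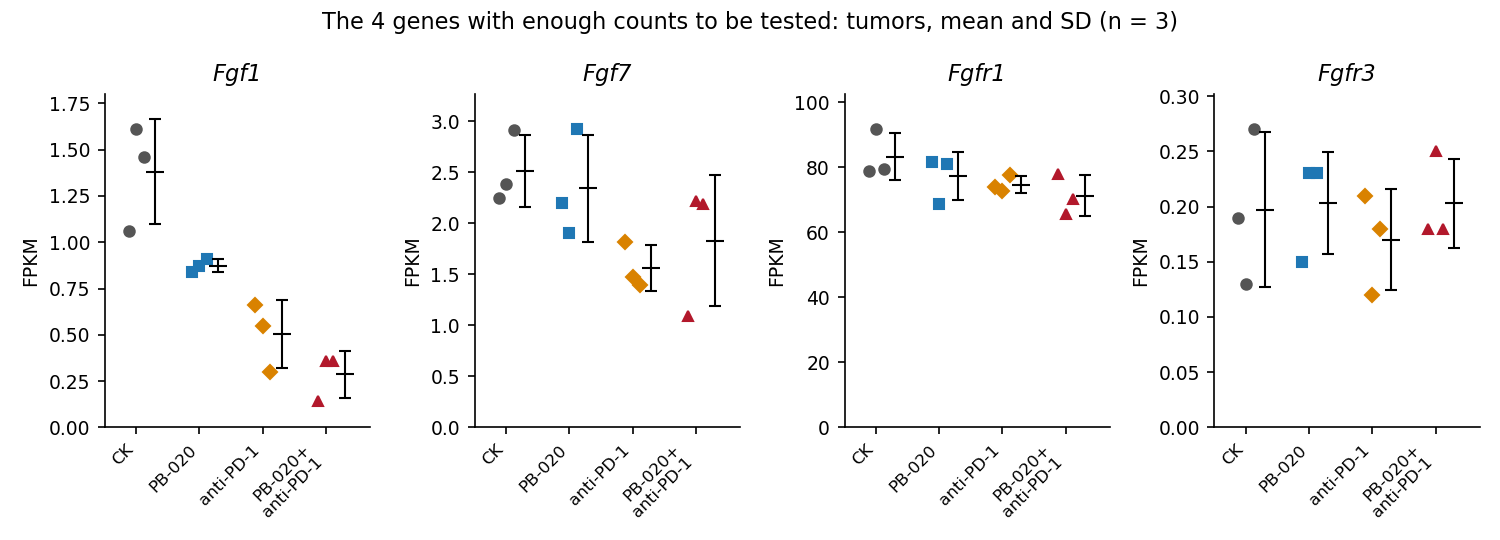
FPKM of Fgf1, Fgf7, Fgfr1 and Fgfr3 in each tumor (points, 3 per group) with the group mean and SD beside them, each panel starting at 0. Fgf1 goes from 1.06 to 1.61 FPKM in CK to 0.14 to 0.36 in the combination without overlap, Fgfr1 shifts by little, and the Fgfr3 groups overlap.

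Fgfr1, on chromosome 8 (25518759 to 25575718, gene 14182), encodes the receptor typical of fibroblasts and other mesenchymal cells. It had 78.8, 91.7 and 79.5 FPKM in the CK tumors, 81.7, 68.7 and 81.1 with PB-020, 73.9, 72.7 and 77.6 with anti-PD-1 and 78.0, 65.6 and 70.2 with the combination. In FPKM every anti-PD-1 and combination tumor lay below the CK tumors, by small amounts. The share of all genes that do so was not counted. In TPM, which scales each library to the same total, anti-PD-1 tumor 1 (141.5) lay above CK tumor 1 (139.8). The fitted log2 change for the combination against CK was −0.22 (95% interval −0.40 to −0.04) with an adjusted p of 0.089, for anti-PD-1 −0.14 (−0.33 to 0.04) and for PB-020 −0.09 (−0.27 to 0.09). With 4620 to 6562 counts per tumor the error was small.

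Fgfr3, on chromosome 5 (33721724 to 33737068, gene 14184), encodes a receptor known for restraining bone growth and for its mutations in bladder cancer. It had 13, 9 and 18 counts in the CK tumors, 10, 15 and 16 with PB-020, 14, 8 and 12 with anti-PD-1 and 12, 17 and 12 with the combination. All groups overlapped. The log2 change for the combination against CK was 0.07 with a 95% interval from −0.74 to 0.88, so that changes of either sign within it remained possible.

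Over all 8 comparisons, 4 of the 10 members had enough counts to be tested, namely Fgf1, Fgf7, Fgfr1 and Fgfr3. For PB-020 against CK 0 of 4 were changed, where the share of all genes was 0% (741 of 13563 at an unadjusted p under 0.05, none of them a member). For anti-PD-1 against CK 1 of 4 was lowered, Fgf1, where 8.26% of all genes were changed in either direction. For the combination against CK it was again 1 of 4, Fgf1, beside 17.9% of all genes. Against anti-PD-1 alone the combination changed 0 of 4, beside 0% of all genes, with 1 member and 984 genes at an unadjusted p under 0.05. Against PB-020 alone it lowered 1 of 4, beside 3.35%. Averaged over PB-020, the antibody lowered 1 of 4, beside 24.2%. These shares moved with single libraries and with the groups fitted. The 455 genes called against PB-020 became 0 without combination tumor 1, 2 without combination tumor 2, 105 without combination tumor 3, 1 without PB-020 tumor 1 and 11 without PB-020 tumor 3, and 284, 1269 and 738 without CK tumor 1, anti-PD-1 tumor 1 or anti-PD-1 tumor 2. The 1120 genes called for anti-PD-1 against CK became 137 without CK tumor 2, 637 without CK tumor 3, 625, 1905 and 238 without anti-PD-1 tumors 1, 2 and 3, and 3 when these groups alone were fitted. For the combination against CK, 2434 genes became 864 without CK tumor 2, 1577 without CK tumor 3, 1085 without combination tumor 1 and 1160 without combination tumor 2. For the antibody averaged over PB-020, 3279 became 2156 without CK tumor 2 and 2086 without PB-020 tumor 1. Averaged over the antibody, PB-020 changed 0 of 4, beside 0% of all genes, with 1 member and 1475 genes at an unadjusted p under 0.05. The interaction gave 0 of 4, beside 0%, with 0 members and 310 genes at an unadjusted p under 0.05. DESeq2 and limma also called 0 members wherever edgeR called 0. With 4 members tested, a count of 1 is not set apart from these shares.

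**Figure D3:**
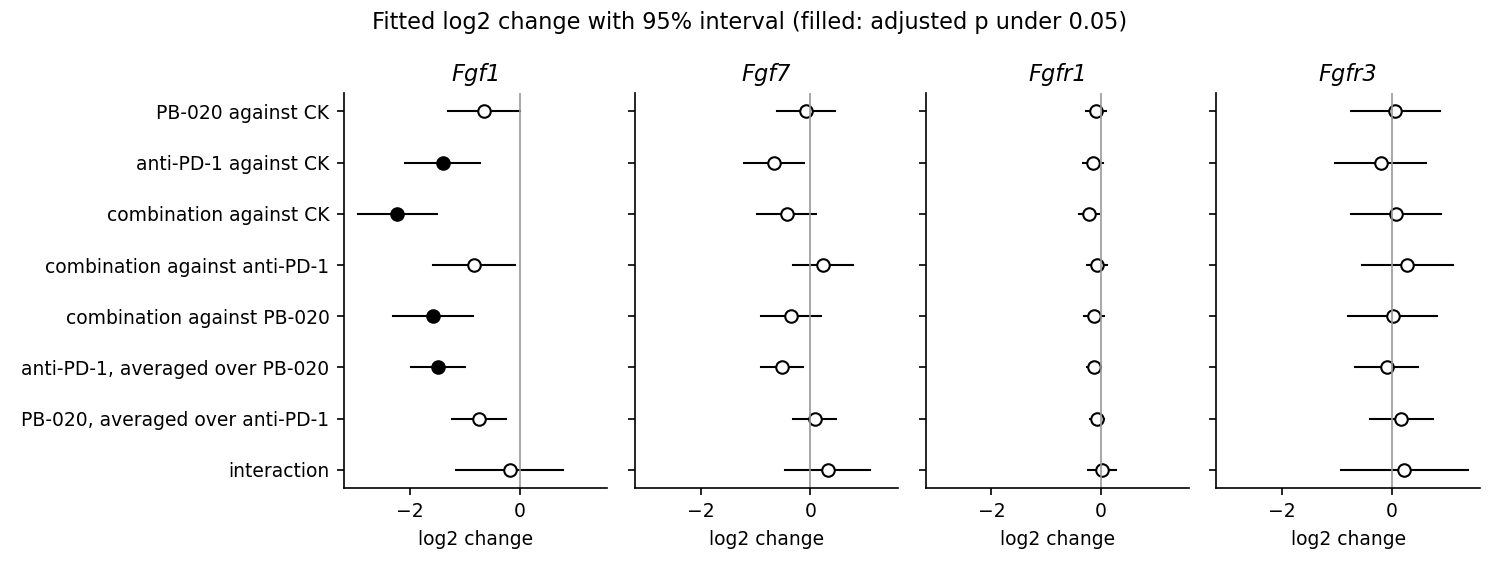
Fitted log2 change with its 95% interval for the 4 tested members in each of the 8 comparisons, filled where the adjusted p is under 0.05. The filled points are all Fgf1, at −1.40 and −2.23 against CK, −1.58 against PB-020 and −1.49 for the antibody averaged over PB-020.

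The 6 members without enough counts were near the limit of detection in every group, and no test was made for them. Fgf2, which encodes basic FGF (chromosome 3, 37348477 to 37410106, gene 14173), had 15 counts over the 12 tumors (95% Poisson interval 8.4 to 24.7) and at most 3 in any tumor. Fgf10 (chromosome 13, 118714699 to 118792573, gene 14165), the mesenchymal ligand required for lung and limb buds, had 37 counts in all. Its highest value was 9 counts in anti-PD-1 tumor 1, the tumor with the muscle transcripts, and each PB-020 tumor had 1. Fgf21 (chromosome 7, 45613890 to 45615490, gene 56636) had 9 counts in all and 0 in the 3 anti-PD-1 tumors, which allows up to 3 counts there. Levels as low as these could not separate the groups.

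Fgf13 (chromosome X, 59062139 to 59585572, gene 14168) was the best covered of these members, with 81 counts over the 12 tumors. Its counts were 10, 2 and 6 in CK, 4, 9 and 9 with PB-020, 11, 4 and 8 with anti-PD-1 and 4, 6 and 8 with the combination, so that all groups overlapped. Fgfr4 (chromosome 13, 55152818 to 55168759, gene 14186), the liver-type receptor, had 10 counts in all and at most 2 in a tumor.

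Fgfr2 (chromosome 7, 130162451 to 130266808, gene 14183), the receptor gene whose epithelial splice form answers FGF7 and FGF10, had 45 counts over the 12 tumors (95% Poisson interval 32.8 to 60.2). The counts were 0, 1 and 5 in CK, 1, 1 and 7 with PB-020, 5, 0 and 2 with anti-PD-1 and 2, 15 and 6 with the combination. The 15 and 7 counts were in combination tumor 2 and PB-020 tumor 3, the libraries in which Krt5 of the basal epidermis had 229 and 171 counts against at most 63 elsewhere. Its usual partner Krt14 had 4237 and 2965 counts there, within its range in the other tumors. The part of epidermis in these Fgfr2 counts was not tested. The expected counts are per gene and give no splice form, so receptor variants were not measured. The intervals given here cover counting error only.

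The rest of the FGF family was mostly silent too. Of 22 FGF genes of the mouse 19 were in the table used here and 4 were tested, the members Fgf1 and Fgf7 and the intracellular Fgf11 and Fgf14. Both intracellular genes had higher medians than Fgf7, 2.57 FPKM for Fgf11 and 4.12 for Fgf14. Fgf11 had 172, 161 and 190 counts in CK, 148, 160 and 163 with PB-020, 117, 117 and 129 with anti-PD-1 and 129, 125 and 116 with the combination. It was lowered by anti-PD-1 (log2 change −0.50, standard error 0.12, adjusted p = 0.026) and by the combination (log2 change −0.46, standard error 0.12, adjusted p = 0.021). The latter call was lost without CK tumor 3 (adjusted p = 0.076), combination tumor 2 (0.056) or combination tumor 3 (0.062), and without the 4 libraries named above (0.095). Fgf14 overlapped between all groups and gave a log2 change of −0.01 (95% interval −0.27 to 0.24) for the combination against CK. Its expected counts were not whole numbers, as RSEM gives where reads are divided between genes. Of the 15 FGF genes not tested, Fgf18 had the highest count, 16 in anti-PD-1 tumor 1, and the other libraries had at most 6.

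Among the receptors' partners, Flrt2 fell. FLRT2 is a membrane protein with leucine-rich repeats that can bind FGF receptors and also guides axons and migrating cells. Flrt2 had 25.4, 22.8 and 24.6 FPKM in CK, 21.5, 23.0 and 20.7 with PB-020, 14.2, 19.8 and 16.1 with anti-PD-1 and 16.6, 15.9 and 16.3 with the combination. The log2 change against CK was −0.56 (standard error 0.10, adjusted p = 0.0042) for the combination and −0.52 (standard error 0.10, adjusted p = 0.011) for anti-PD-1, and the combination was below PB-020 as well (−0.42, adjusted p = 0.040). The last call was lost in 12 of 22 alternative settings, among them each fit without a PB-020 or a combination tumor (adjusted p from 0.090 to 0.16) or without CK tumor 1, 2 or 3 or anti-PD-1 tumor 3 (from 0.051 to 0.061). Fgfrl1, the decoy receptor without a kinase, was at a median of 5.59 FPKM and gave a log2 change of 0.23 (95% interval −0.12 to 0.58) for the combination. Klb, the gene of beta-klotho that FGF21 needs, had at most 8 counts in any tumor. Of 9 tested genes of the list of receptors and their partners, the combination lowered 1 against CK and raised 0, beside 17.9% of all genes, with a median log2 change of 0.07 against −0.0026 for all genes tested.

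Heparan sulfate genes included the largest changes called in the FGF pathway lists after Fgf1. Of 25 tested genes for proteoglycan cores and chain-building enzymes, the combination lowered 6 and raised 1 against CK, where 17.9% of all genes were changed, with a median log2 change of −0.05 over the list. Sdc2 (syndecan 2) fell by 0.89 on the log2 scale (standard error 0.13, adjusted p = 0.0023) and Gpc1 (glypican 1) by 0.77 (standard error 0.10, adjusted p = 0.0015). Sdc2 had 4096, 4824 and 4499 counts in CK and 2297, 2253 and 2517 with the combination. Hspg2, the basement membrane proteoglycan perlecan, fell by 0.53 (adjusted p = 0.0050), and Hs2st1, the enzyme that adds the 2-O-sulfate needed by many FGFs, by 0.45 (adjusted p = 0.0033). The chain polymerase genes Ext2 and Ext1 had log2 changes of −0.29 and −0.41 (adjusted p = 0.016 and 0.036). Sulf1, which removes 6-O-sulfates from finished chains, rose by 1.22 (standard error 0.31, adjusted p = 0.025). Its counts went from 162, 127 and 200 in CK to 393, 362 and 357 with the combination, and it reached 550 in anti-PD-1 tumor 1. Anti-PD-1 alone lowered 3 of the 25, Sdc2, Gpc1 and Hs2st1, and raised 0, beside 8.26% of all genes.

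In the relay between receptor and nucleus, Gab1 and Frs2 fell and Map2k1 rose. Of 24 tested adaptors and kinases, the combination lowered 6 and raised 1 against CK, beside 17.9% of all genes, with a median log2 change of −0.02. Frs2, the docking protein specific to FGF and neurotrophin receptors, fell by 0.40 (standard error 0.08, adjusted p = 0.0060), from 1084, 1185 and 1077 counts in CK to 822, 782 and 868. Gab1, an adaptor that recruits PI3K, fell by 0.57 (standard error 0.10, adjusted p = 0.0045). Map2k1, the gene of the kinase MEK1, rose by 0.38 (standard error 0.08, adjusted p = 0.0075). Gab2 and Mapk3 (ERK1) had log2 changes of −0.33 and −0.25 with adjusted p of 0.034 and 0.035, and their calls were lost in 8 and 9 of 22 alternative settings, among them the fit without CK tumor 2 (adjusted p = 0.12 and 0.16). Plcg1, an enzyme that the receptor binds directly, had a log2 change of −0.24 (adjusted p = 0.045). Anti-PD-1 alone lowered Frs2 and Gab1 and raised Map2k1.

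Genes that FGF-ERK signaling commonly induces went both ways. Of 22 tested, the combination raised 3 and lowered 3 against CK, beside 17.9% of all genes, with a median of −0.03. Etv1, an ETS transcription factor, fell by 0.61 (standard error 0.09, adjusted p = 0.0018), from 671, 671 and 628 counts in CK to 441, 393 and 424. The feedback inhibitors Spry4 and Spry2 fell by 0.55 and 0.60 (adjusted p = 0.020 for both). The phosphatase gene Dusp5 rose by 0.71 (adjusted p = 0.028), Ccnd1, the gene of cyclin D1, by 0.44 (adjusted p = 0.010) and the AP-1 gene Fosl1 by 0.29 (adjusted p = 0.027). Dusp6 and Etv5, which follow FGF signaling in many tissues, gave log2 changes of −0.05 (standard error 0.08) and −0.01 (standard error 0.11). Without CK tumor 2 the adjusted p was 0.084 for Spry4, 0.061 for Spry2, 0.12 for Dusp5 and 0.11 for Fosl1. Spry4 and Spry2 were also lost without CK tumor 3 (adjusted p = 0.054 and 0.074), combination tumor 1 (0.064 and 0.084) or combination tumor 2 (0.068 and 0.062). Dusp5 was lost without CK tumor 1 (0.072), combination tumor 1 (0.0996) or combination tumor 2 (0.082), and Fosl1 without CK tumor 3 (0.058) or any of combination tumors 1 to 3 (0.051, 0.050 and 0.088). Anti-PD-1 alone raised Ccnd1, Phlda1 and Dusp4 and lowered Etv1, the Dusp4 and Phlda1 values being 0.61 (adjusted p = 0.049) and 0.58 (adjusted p = 0.032).

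The settings in which other calls of these lists were lost were the following. Ext2 was lost in 5 of 22 settings, among them the fits without CK tumor 1 (adjusted p = 0.057), CK tumor 3 (0.056), combination tumor 1 (0.067) or combination tumor 2 (0.073). Sulf1 was lost without CK tumor 1 (0.063), CK tumor 2 (0.097), combination tumor 1 (0.072) or combination tumor 2 (0.061). The adjusted p of Ccnd1 was 0.051 without combination tumor 1, and its direction stayed. Ext1 was lost without CK tumor 2 or 3, PB-020 tumor 3 or combination tumor 1 or 2 (adjusted p from 0.050 to 0.14). Plcg1 was lost in 12 of 22 settings, among them the fits without any CK tumor, PB-020 tumor 1 or 2, anti-PD-1 tumor 2 or 3 or combination tumor 1 or 2 (from 0.051 to 0.17).

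For anti-PD-1 alone against CK, all 12 calls named in these lists were lost when the libraries of these groups alone were fitted (adjusted p from 0.050 to 0.13). With each library left out, Gpc1, Map2k1 and Etv1 kept their calls. Sdc2 was lost without CK tumor 2 (0.051) and Flrt2 without anti-PD-1 tumor 3 (0.052). Hs2st1 was lost without CK tumor 2 or anti-PD-1 tumor 1 or 3 (from 0.051 to 0.0997), and Gab1 without these or CK tumor 3 (from 0.053 to 0.11). Fgf11 was lost without any CK tumor or without anti-PD-1 tumor 1 or 3 (from 0.051 to 0.079), and Phlda1 without CK tumor 1 or 2 or anti-PD-1 tumor 1 or 3 (from 0.077 to 0.13). Ccnd1 was lost without CK tumor 2 or 3, PB-020 tumor 1 or 3 or anti-PD-1 tumor 1 or 3 (from 0.054 to 0.11). Frs2 kept its call only without PB-020 tumor 2 or anti-PD-1 tumor 2, and was otherwise between 0.053 and 0.17. Dusp4 kept its call only without PB-020 tumor 2, anti-PD-1 tumor 2 or combination tumor 1, and was otherwise between 0.060 and 0.14.

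**Figure D4:**
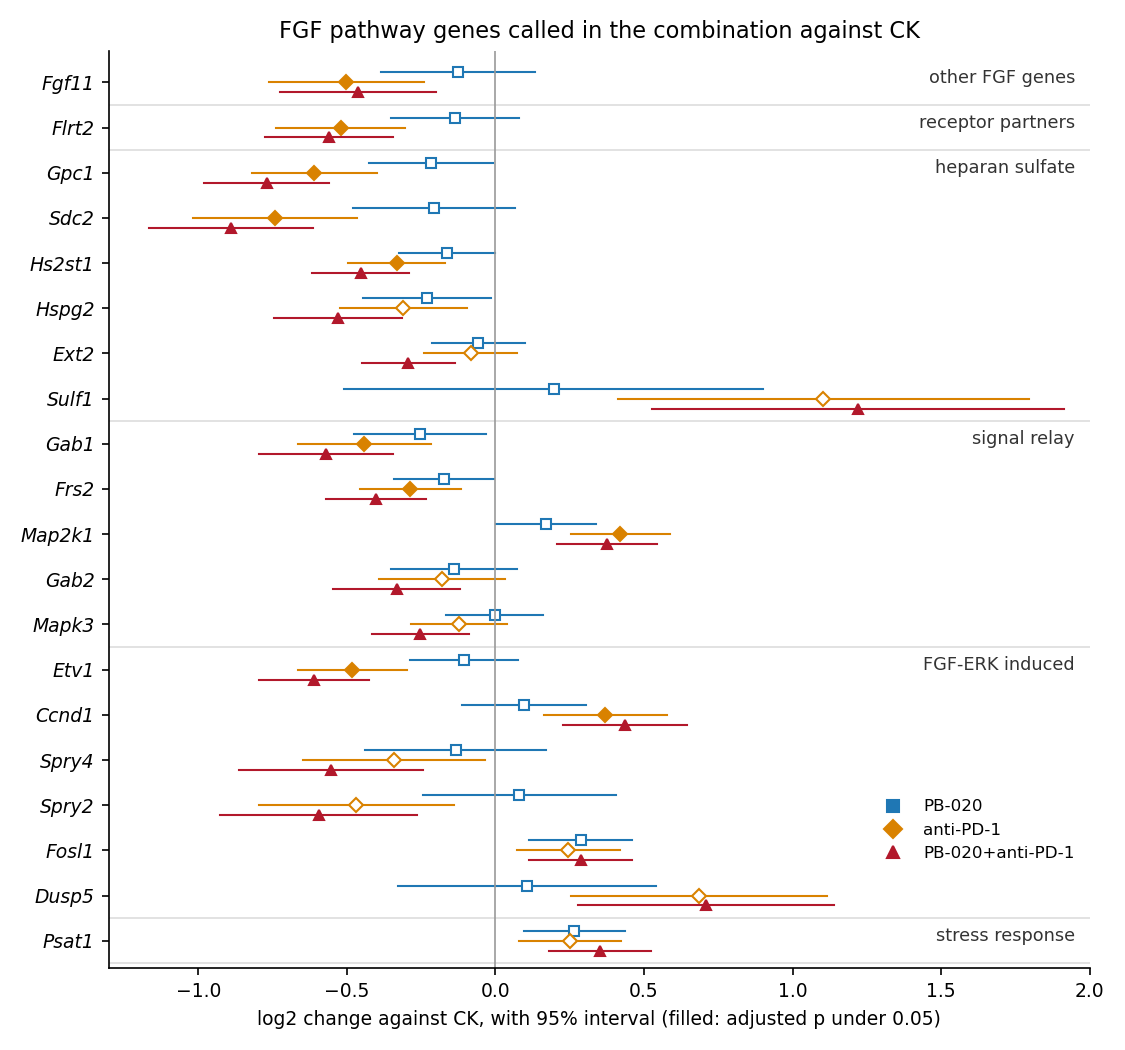
Log2 change against CK with its 95% interval for PB-020, anti-PD-1 and the combination, for up to 6 genes per list with the smallest p among those changed by the combination, filled where the adjusted p is under 0.05. Heparan sulfate genes lie mostly left of 0, from −0.89 for Sdc2, except Sulf1 at 1.22, and no PB-020 point is filled.

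The partners of Fgf13 and the stress program that induces Fgf21 in other tissues were looked at in the same way. Of 12 sodium channel subunit genes 4 were tested and 0 were changed by the combination against CK, with a median log2 change of −0.16. The median over all genes tested was −0.0026. Of 12 tested genes of the integrated stress response, the combination raised 1 against CK, beside 17.9% of all genes, Psat1 of serine synthesis, by 0.35 (standard error 0.08, adjusted p = 0.011). This call was lost without CK tumor 2 (adjusted p = 0.057) or combination tumor 1 (0.051). For PB-020 alone against CK all 12 fitted log2 changes were above 0, with a median of 0.20 against −0.0038 for all genes tested. The share of all genes above 0 was not counted. Of the 12, 0 were called, beside 0% of all genes. The summed FPKM of the 12 was 1109 to 1263 in CK and 1366 to 1447 with PB-020. It was 1130 to 1211 with the combination, within the CK range. Against PB-020 alone the combination lowered 2 of the 12, beside 3.35% of all genes, Ppp1r15a by 0.59 (adjusted p = 0.050, rounded from 0.04985) and Nupr1 by 0.53 (adjusted p = 0.029). Both calls were lost without PB-020 tumor 1 or 3 or any combination tumor, where the adjusted p was between 0.092 and 0.19 for Ppp1r15a and between 0.073 and 0.13 for Nupr1. That of Ppp1r15a was lost in 14 of 22 settings in all.

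The summed FPKM of several marker lists of other cells differed between the CK and the combination tumors, as Fgf1 did, and their part in its fall was not tested. Of 12 T cell markers the combination raised 11 against CK and anti-PD-1 raised 10, and their summed FPKM went from 15.2 to 20.6 in CK to 40.3 to 66.0 with the combination. The epidermal list was at 84.0 to 125.6 FPKM in CK and 172.3 to 234.4 with the combination, which raised 1 of 8 tested genes, Krt14 (log2 change 1.04, adjusted p = 0.0045). Without Krt14, the other 11 genes of this list summed to between 4.22 and 12.01 FPKM in CK. They summed to 7.59, 56.48 and 7.15 in combination tumors 1, 2 and 3, so that the groups overlapped. The Schwann cell and nerve list was at 147.5 to 171.3 FPKM in CK and 119.1 to 125.9 with the combination, with 2 of 6 tested genes lowered, Pmp22 by 0.41 (adjusted p = 0.0085) and Cdh19 by 0.69 (adjusted p = 0.031). Pmp22 made up most of this list, at a mean of 154 FPKM in CK and 115 with the combination. The macrophage list was at 1695 to 2125 FPKM in CK and above this range in each tumor, up to 2562, with the combination, with 0 of 10 genes called. Of its fitted log2 changes 6 were above 0 and 4 below, with a median of 0.04. The sums of these lists did not overlap between CK and the combination, whereas those of the fibroblast, pericyte, endothelial, muscle, fat cell and simple epithelial lists did. How large a share of all genes separates these groups in this way was not counted. Of 14 fibroblast markers the combination lowered 3 and raised 1, while 9 of the 14 fitted log2 changes were above 0 and their median was 0.39. Pdgfra, the receptor gene typical of fibroblasts, fell by 0.91 (standard error 0.11, adjusted p = 0.0012) and Dcn (decorin) by 1.21 (standard error 0.24, adjusted p = 0.010), while Postn (periostin), a matrix gene of activated fibroblasts, rose by 1.34 (standard error 0.37, adjusted p = 0.039). The summed fibroblast list was at 805.6 to 1122 FPKM in CK and 723.8 to 1020 with the combination, overlapping. Pericyte markers had 4 genes lowered and 1 raised of 11 (median 0.19), and endothelial markers 1 lowered of 11 (median −0.29). Simple epithelial markers had 1 lowered of 2 tested. The share of all genes called in this comparison was 17.9%. The call of Postn was lost in 11 of 22 settings, among them the fits without any CK, PB-020 or combination tumor (adjusted p from 0.051 to 0.13), that of Cdh19 without CK tumor 1 or 2 or any combination tumor (from 0.063 to 0.14), and that of Krt14 without the 4 libraries named above (0.099). Without the 4 libraries with muscle, fat or epidermal transcripts, a setting chosen after the data were seen, the log2 change of Fgf1 was −2.40 (adjusted p = 0.0028) for the combination and −1.56 (adjusted p = 0.033) for anti-PD-1 against CK.

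Genes with the pattern most like that of Fgf1 were sought over the 12 tumors, as the smallest root mean square difference of centred log2 CPM. They were Islr2 (0.298), Nckap5 (0.33) and Vtn (0.33), where Fgf1's own root mean square deviation was 0.901. Islr2 encodes a leucine-rich membrane protein of neurons and Vtn the adhesion protein vitronectin. Islr2 had a mean of 1.10 ± 0.384 FPKM (SD, n = 3) in CK, 0.723 ± 0.0723 with PB-020, 0.283 ± 0.095 with anti-PD-1 and 0.26 ± 0.128 with the combination. The log2 changes for the combination against CK were −2.04 for Islr2, −1.79 for Nckap5 and −1.86 for Vtn. The likeness was chosen on the same values, and so these changes are a description.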

How the data were processed

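The samples were 12 MC38 tumors, 3 in each of 4 groups taken from the sample labels. The authors sequenced pairs of 150 bases, used Bowtie2 for alignment and RSEM for quantification, and give the reference as mm10 or hg19. The submitters' processing notes name HISAT, Bowtie2 and GRCm38.p6. Versions are not given in the sources used here. Deposited by the authors were expected counts, estimated values that can divide a read between genes and carry no normalization. The authors also deposited FPKM, scaled by gene length and library total, and TPM, scaled to the same total in each library. The authors' group averages were not used. Gene positions are 1-based coordinates of RefSeq genes on GRCm38.p6, to which 18091 of 18211 genes matched by gene number.

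Expected counts were rounded and filtered with filterByExpr (minimum count 10) of edgeR 4.0.16 in R 4.3.3, which left 13563 genes, and scaled by TMM. A robust quasi-likelihood model with 4 group means was fitted to all 12 libraries, so that the groups share an estimate of the spread. All tests are two-sided with p-values adjusted over the genes tested. The labels do not say whether tumors of a group came from separate mice, and the p-values measure the spread between these samples. No libraries were alike within sampling noise. Lists are described by counts and medians, without a test. The genes named are the members, up to 6 genes per FGF pathway list with the smallest p among those called in the combination against CK, and the 3 genes most like a member called against CK. A gene that this rule names is not reported here. Ext1, Plcg1, Dusp4, Dusp6, Etv5, Phlda1, Ppp1r15a, Nupr1 and the cell markers were named after their values were seen. The members and lists were chosen with earlier results of these data known. The combination against CK was tested on simulated counts for 13563 genes, where edgeR recovered 35 of 67 genes changed 1.5-fold, 52 of 67 changed 2-fold and 53 of 66 changed 3-fold. It called 5 of 13363 unchanged genes. The simulated counts took their spread from this fit, with equal group means except in 200 genes. They held no libraries with transcripts of surrounding tissue, so rates in the real data can differ. Alternatives were DESeq2 1.42.0, limma 3.58.1 on log2(FPKM + 1) and log2(FPKM + 0.1), no filter, a strict filter (1 CPM in 6 libraries), other scalings, fewer groups, the replicate number as a block and each library left out.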

Additional observations from a re-analysis of the deposited data

How the results depend on the processing

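The count of changed members (0 or 1 of the 4 tested) was the same under the alternatives run except in 3 comparisons. For anti-PD-1 against CK it went from 1 to 0 when only the groups compared were fitted and without CK tumor 2 or anti-PD-1 tumor 3. For the combination against PB-020 it ranged from 0 to 1 with each library left out. For the antibody averaged over PB-020 it went from 1 to 2, with Fgf7 added, under DESeq2, both limma fits and the strict filter, and ranged from 1 to 2 with each library left out. With TPM in place of FPKM the mean share of Fgfr1 among the receptors moved by less than its SD. Signs turned only for log2 changes that were not called. With libraries left out, the interaction ranged from −0.396 to 0.148 for Fgf1, from −0.049 to 0.0752 for Fgfr1 and from −0.0424 to 0.436 for Fgfr3, and that of Fgf1 was 0.114 under limma on log2(FPKM + 1). Fgf7 ranged from −0.276 to 0.047 for PB-020 against CK and from −0.0179 to 0.21 for PB-020 averaged over the antibody, and Fgf14 from −0.0971 to 0.086 for the combination against CK. Fgfr3 ranged from −0.154 to 0.333 for PB-020, from −0.424 to 0.0652 for anti-PD-1 and from −0.143 to 0.356 for the combination against CK, from −0.188 to 0.145 for the combination against PB-020 and from −0.206 to 0.044 for the antibody averaged. Without the 4 libraries with muscle, fat or epidermal transcripts, a setting chosen after the data were seen, Fgfr3 was at −0.0652 for the combination against PB-020. Over all genes, the 455 called for the combination against PB-020 became 1109 under DESeq2 and 1535 when only these groups were fitted, and the 1120 called for anti-PD-1 against CK became 3 in the latter fit and 429 without the 4 libraries. The antibody averaged over PB-020 went from 3279 to 1994 without them. The cause of these changes was not tested. The replicate numbers were not shown to pair the samples, since 2 of 18 correlations of same-numbered deviations exceeded 0.1 (range −0.21 to 0.289). With the replicate block, the log2 change of Fgf1 was −2.24 (adjusted p = 0.0046) for the combination and −1.38 (adjusted p = 0.033) for anti-PD-1 against CK, and the number of changed members stayed as given in each comparison.

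Depth limits the 6 members with at most 15 counts in any tumor, for which no difference between groups was tested, and Fgfr3, whose 95% interval for the combination against CK runs from −0.74 to 0.88. Gene totals from bulk RNA give neither the cell of origin nor the splice form of a receptor.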
